A study of Mus musculus with 4 samples.

Results

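Base changes listed as coding in more than 1 of 3 independently derived mouse tumour cell lines were described, and set against those listed in 1 line only. A site is a genome position with its new base, and the shared ones were chosen by their presence in the lists alone, that is, by the reads and allele fractions that put a site on a list. Of 1191 distinct sites in the lists of YUMM 1.1, YUMM 1.3 and MB49, 116 stood in at least 2 lists and are called shared here, and 1075 stood in 1 list and are called private. Of the shared sites, 53 were in all 3 lists, 44 in those of YUMM 1.1 and YUMM 1.3 only, 11 in those of YUMM 1.1 and MB49 only and 8 in those of YUMM 1.3 and MB49 only. The shared sites made up 108 of 428 sites of YUMM 1.1, 105 of 225 of YUMM 1.3 and 72 of 707 of MB49. None of the 1191 sites was in the list of UV YUMM 1.1-9, the remaining line of the series. That list holds additions to YUMM 1.1. It was used only for this count and for a count of its sites in genes with a shared site.

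Both YUMM lines were grown out of melanomas of engineered mice, and MB49 is a bladder carcinoma line obtained with a chemical carcinogen. The labels give no genotype, treatment or age for these cultures. Their text on tumour growth concerns tumours in mice with induced Atg7 deletion and calls the injected cells male and isogenic with C57Bl/6J. Each line was 1 exome library with no replicate. The labels name the source as mouse tumours, while the extraction text speaks of cell lines and leaves YUMM 1.3 unnamed. No sample label reads MB49, and the table so headed was assigned to 49XC-49 because the other headings match the other samples. Tests below therefore compare lists of sites, or the reads at a site, and not conditions. Their p-values cover counting error only, over sites, genes or reads.

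An exome capture reads the protein-coding part of the genome through short reads, and each read is placed where it matches the reference best. Genes that exist in several near-identical copies share sequence, so a read can match more than 1 copy, and a base that differs between copies can be written down as a change at 1 of them. Whether this holds at any shared site was not tested.

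Several shared sites lay in clusters of similar genes. Speer4c and LOC105242399 (Gm21083 in RefSeq) lie in the same cluster on chromosome 5, with Speer4d between them, and the same synonymous change, tcG to tcA in codon 250, was listed for both of them in all 3 lines. Their RefSeq start windows (250 bases before to 50 after the transcript start, build GRCm38.p6) had 270 letters in common. They are printed 5′ to 3′ on the strand of the gene, with capitals for letters that differ or are unpaired in the alignment, to show how alike the copies are. The window of LOC105242399 is chr5:15577043-15577342 on the plus strand and that of Speer4c is chr5:15714222-15714521 on the minus strand.
LOC105242399: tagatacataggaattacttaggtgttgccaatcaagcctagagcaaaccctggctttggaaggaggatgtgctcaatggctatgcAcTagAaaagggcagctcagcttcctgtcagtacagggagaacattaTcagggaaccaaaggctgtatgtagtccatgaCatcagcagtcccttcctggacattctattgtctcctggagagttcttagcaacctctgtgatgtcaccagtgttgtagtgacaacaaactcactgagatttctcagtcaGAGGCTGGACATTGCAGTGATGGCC
Speer4c: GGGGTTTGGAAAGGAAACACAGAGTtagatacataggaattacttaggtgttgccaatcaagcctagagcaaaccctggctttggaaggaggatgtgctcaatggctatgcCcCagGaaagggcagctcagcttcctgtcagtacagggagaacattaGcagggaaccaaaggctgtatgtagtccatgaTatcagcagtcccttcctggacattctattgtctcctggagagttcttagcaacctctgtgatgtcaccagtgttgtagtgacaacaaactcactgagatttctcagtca
Shifted against each other, the windows differ at 5 letters in their overlap and end in 25 unpaired letters each. Among the other genes with a shared site, Gm1979 (chr5:26004678-26004977, minus strand) and Gm21671 (chr5:25954295-25954594, minus strand) had the most letters in common, 296 of 300.
Gm1979: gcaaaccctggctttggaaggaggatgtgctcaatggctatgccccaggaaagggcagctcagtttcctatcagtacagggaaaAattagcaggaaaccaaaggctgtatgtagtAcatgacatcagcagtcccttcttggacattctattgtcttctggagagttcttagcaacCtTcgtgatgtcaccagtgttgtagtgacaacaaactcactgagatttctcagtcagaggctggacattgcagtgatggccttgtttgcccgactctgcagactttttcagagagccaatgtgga
Gm21671: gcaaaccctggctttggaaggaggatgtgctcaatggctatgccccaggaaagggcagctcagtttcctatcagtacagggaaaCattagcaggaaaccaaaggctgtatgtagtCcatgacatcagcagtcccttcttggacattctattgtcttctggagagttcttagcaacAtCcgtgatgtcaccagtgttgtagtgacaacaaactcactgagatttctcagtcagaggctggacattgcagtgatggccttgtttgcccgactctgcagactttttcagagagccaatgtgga
The windows of this pair differed at 4 letters. A window was found for 53 of the 74 genes with a shared site, and 30 of these 53 matched the window of another gene at 95% identity or more over at least 250 bases, with a median of 8.5 matching genes and at most 18. The lack of a window for 21 genes, with 71.6% covered, leaves a comparison of this share with other genes void, and none is made. Among genes outside the symbol groups defined next, 0 of 12 windows had such a match. Of the shared sites, 0 lay inside any start window.

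Most shared sites lay in genes that have only a provisional name in the lists. Predicted genes and clone names (Gm, LOC, Rik and the like) held 65 of 116 shared sites, or 56.0% (exact 95% interval 46.5 to 65.2), and 101 of 1075 private sites, or 9.40%, 46.6 percentage points apart (37.4 to 55.5). Such a name says nothing of a gene's family. RefSeq gives some of these genes a family name, such as Spin2f for LOC108168466 and Sirpb1c for LOC100038947, and they were not regrouped. Genes whose listed symbol names a family held 21 shared sites, or 18.1%, and 171 private ones, or 15.9%, a difference of 2.20 points (-4.18 to 10.5). Both kinds of symbol together are called the symbol groups here, and 86 of 116 shared sites, or 74.1% (65.2 to 81.8), fell in them, and 272 of 1075 private sites did, or 25.3% (22.7 to 28.0), or 48.8 points apart (39.8 to 56.4). The list of symbols was drawn up with these results known, so no test is given. Vomeronasal receptors, which detect pheromones, had 6 shared sites, or 5.17%, against 3.81% of private sites (1.36 points apart, -1.72 to 7.10). Genes with a zinc finger symbol (Zfp and the like) had 5, or 4.31% against 2.05% (2.26 points, -0.400 to 7.69). Prdm9 and Gm13154 (Zfp985 in RefSeq) are not counted there. Mucins, the heavily glycosylated proteins of epithelia, had 5, or 4.31% against 0.372% (3.94 points, 1.42 to 9.33). Speer genes, a testis-expressed family, had 4, or 3.45% against 0.0930% (3.36 points, 1.21 to 8.44). H2-Q6, a class I histocompatibility gene, had 1. Odorant receptors, the largest gene family of the mouse, had 0 of 116 shared sites (at most 3.13% by the exact interval) and 76 of 1075 private sites, or 7.07%. The share in the symbol groups was 81.1% among the 53 sites in all 3 lists, 65.9% among the 44 in both YUMM lists only, 63.6% among the 11 of YUMM 1.1 and MB49 and 87.5% among the 8 of YUMM 1.3 and MB49.

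Read depth at shared sites was 3.71 to 3.79 times that at private sites of the same list. Depth is the number of reads with either base. The median was 219 reads at the 108 shared sites of YUMM 1.1 (quartiles 86.8 and 348) and 59 at its 320 private sites. In YUMM 1.3 it was 236 (99 to 374) and 63, and in MB49 212.5 (81 to 335) and 56. Since a listed site carried at least 5 alternative reads and an allele fraction of at least 10% in every list, depth entered the choice of members, and no test is given. Outside the symbol groups the ratio was 3.62 in YUMM 1.1, 3.73 in YUMM 1.3 and 3.90 in MB49, against 3.71, 3.75 and 3.79 over all sites. Depth above 100 reads was found at 69.4%, 74.3% and 70.8% of shared sites and at 19.7%, 31.7% and 21.4% of private sites.

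**Figure D1:**
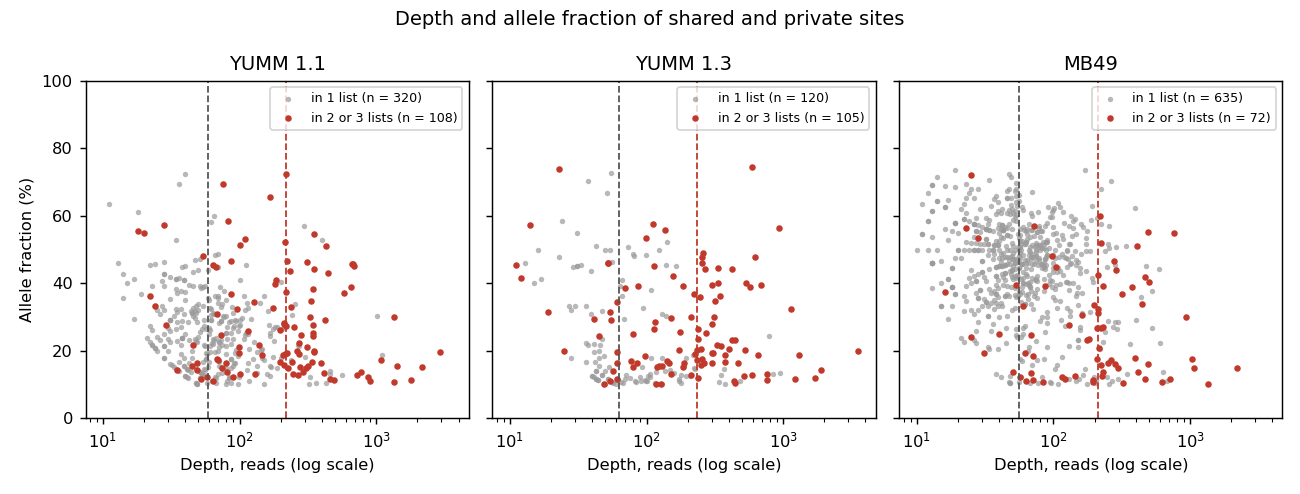
Depth in reads (log scale, x axis) against allele fraction in percent (y axis) for each listed site, 1 panel per line. Red points are sites in 2 or 3 lists and grey points sites in 1 list, and the dashed lines are their median depths, 219 against 59, 236 against 63 and 212.5 against 56 from left to right.

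The deepest site of all was T84I in Sfi1, a gene for a centrosome protein that binds centrin, at 11:3186080. It had 572 of 2912 reads in YUMM 1.1, 703 of 3533 in YUMM 1.3 and 328 of 2194 in MB49. The allele fraction was 19.6%, 19.9% and 14.9%, so the site was deepest in all 3 lines and had fewer alternative than reference reads throughout. Gm10354 followed with 328 of 2146 reads in YUMM 1.1 and 269 of 1903 in YUMM 1.3 at its synonymous change in codon 91, which was not listed in MB49. Speer4e R148C had 220 of 1423, 143 of 1224 and 161 of 1074 reads in YUMM 1.1, YUMM 1.3 and MB49. Gm21190 P242L had 405 of 1353, 366 of 1135 and 280 of 937 reads, and LOC101055758 R313Q had 186 of 1077, 247 of 1311 and 182 of 1030 reads. Gm17019 R88C had 204 of 1791 reads in YUMM 1.1 and 138 of 1346 in MB49. These fractions lay under 20% except those of Gm21190 P242L, which were 29.9%, 32.2% and 29.9%. Over 1000 reads in some line were found at 7 of 116 shared and 2 of 1075 private sites. Not every shared site was deep. Muc4 V916I, in a membrane mucin, rested on 16 of 28 reads in YUMM 1.1 and 13 of 23 in MB49, and the synonymous change in codon 257 of Gm7889 on 10 of 18 and 5 of 11 in the YUMM lines.

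The allele fraction, the share of alternative reads, was low at many shared sites, with similar medians in the 3 lines. Its median was 23.4% in YUMM 1.1 (quartiles 15.5 and 38.4), 21.6% in YUMM 1.3 (16.3 to 38.8) and 23.7% in MB49 (13.7 to 39.1). At private sites the medians were 25%, 15.97% and 46.7%, so the lines differed from each other there. Averaged over the lists that held it, the fraction lay between 10% and 20% at 49 shared sites, between 20% and 30% at 24, between 30% and 40% at 16, between 40% and 50% at 14 and above 50% at 13. In MB49, 20.8% of shared sites had a fraction from 40% to 60%, against 57.6% of its private sites. The allele fraction also set which sites were listed, so these values are a description. A fraction under 50% can come from part of the cells or from part of the gene copies, and read counts alone cannot tell these apart.

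Going from 1 to 2 to 3 lists, the median depth over all listings was 57, 145.5 and 253 reads, and the median allele fraction 38.5%, 20.5% and 25.4%. The lists contribute unequally to these groups, with 635 of the private sites from MB49. Taking 1 site per gene, the highest fractions that held in every list of a site were those of Tmcc1 R485S, in a membrane protein of the endoplasmic reticulum, with 158 of 218 reads in YUMM 1.1 and 132 of 220 in MB49 (72.5% and 60%). Next came Muc4 V916I (57.1% and 56.5%) and the stop gain Y293* of C130026I21Rik at 1:85245674, with 526 of 932 reads in YUMM 1.3 and 417 of 761 in MB49 (56.4% and 54.8%). The synonymous change in codon 183 of Eef2, which encodes translation elongation factor 2, had 109 of 166 and 53 of 99 reads in YUMM 1.1 and YUMM 1.3. H2-Q6 K52T, at 17:35425198, had 113 of 216, 127 of 259 and 116 of 223 reads, or 52.3%, 49.0% and 52.0% in YUMM 1.1, YUMM 1.3 and MB49.

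Whether a shared site had the same fraction in 2 lines was tested site by site, for sites that both lists hold. Listed sites had at least 5 alternative reads and a fraction of at least 10% in each list. A site below this in 1 line of a pair could not be compared, so the counts leave out such differences. Of 97 sites shared by YUMM 1.1 and YUMM 1.3, 1 differed (1.03%; two-sided Fisher's exact test on reads, Benjamini-Hochberg adjusted p under the 0.05 threshold). Of 64 shared by YUMM 1.1 and MB49, 6 differed (9.38%), and of 61 shared by YUMM 1.3 and MB49, 3 did (4.92%). Unadjusted p-values fell under 0.05 at 12, 11 and 9 sites. The comparisons share lines and are not independent. The median absolute difference was 3.26, 2.24 and 3.27 percentage points in the same order, and 64, 46 and 39 sites lay within 5 points. A site that missed the threshold is not shown to have equal fractions, and at low depth large differences did not pass. LOC100038947 I268N had 8 of 22, 17 of 23 and 6 of 16 reads, or 36.4%, 73.9% and 37.5%, in YUMM 1.1, YUMM 1.3 and MB49, with no pair past the threshold.

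The 10 differences fell on 7 sites. The smallest p-value was that of the codon 250 change of LOC105242399 at 5:15581691, with 92 of 718 reads in YUMM 1.1, 76 of 594 in YUMM 1.3 and 196 of 467 in MB49. MB49 stood alone at 42.0%, against 12.8% in both YUMM lines (exact test, adjusted p = 7.71e-28 and 1.28e-25). The same change in Speer4c had 24.6%, 15.7% and 26.8% (69 of 280, 39 of 249 and 56 of 209 reads), and no pair of lines passed there. Gm5591 A481S at 7:38520007 showed the widest gap, with 8 of 29, 5 of 25 and 18 of 25 reads, or 27.6%, 20% and 72% (exact test, adjusted p = 0.0289 for MB49 against YUMM 1.1 and 0.0105 against YUMM 1.3). The codon 508 change of Tmcc1 was the 1 site that separated the YUMM lines, with 191 of 349 and 437 of 587 reads, or 54.7% in YUMM 1.1 and 74.4% in YUMM 1.3 (exact test, adjusted p = 7.85e-08). Sfi1 T84I was lower in MB49 by 4.69 points against YUMM 1.1 and 4.95 against YUMM 1.3 (exact test, adjusted p = 0.000445 and 6.32e-05), a small step resolved by its depth.

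The stop gain Q268* of C87414 (Pramel34 in RefSeq) at 5:93637618 had 82 of 219, 63 of 211 and 41 of 177 reads, or 37.4%, 29.9% and 23.2%, and YUMM 1.1 and MB49 differed (exact test, adjusted p = 0.0289). LOC100504180 L537F had 302 of 661 reads in YUMM 1.1 and 273 of 495 in MB49, 9.46 points higher in MB49 (exact test, adjusted p = 0.0289). LOC108168466 N179I was 12.2 points higher in MB49 than in YUMM 1.1 (66 of 211 and 52 of 273 reads; exact test, adjusted p = 0.0289), with 25.4% in YUMM 1.3 between them. With p-values adjusted over the 3 pairs together, 2 of the 6 differences between YUMM 1.1 and MB49 were left.

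**Figure D2:**
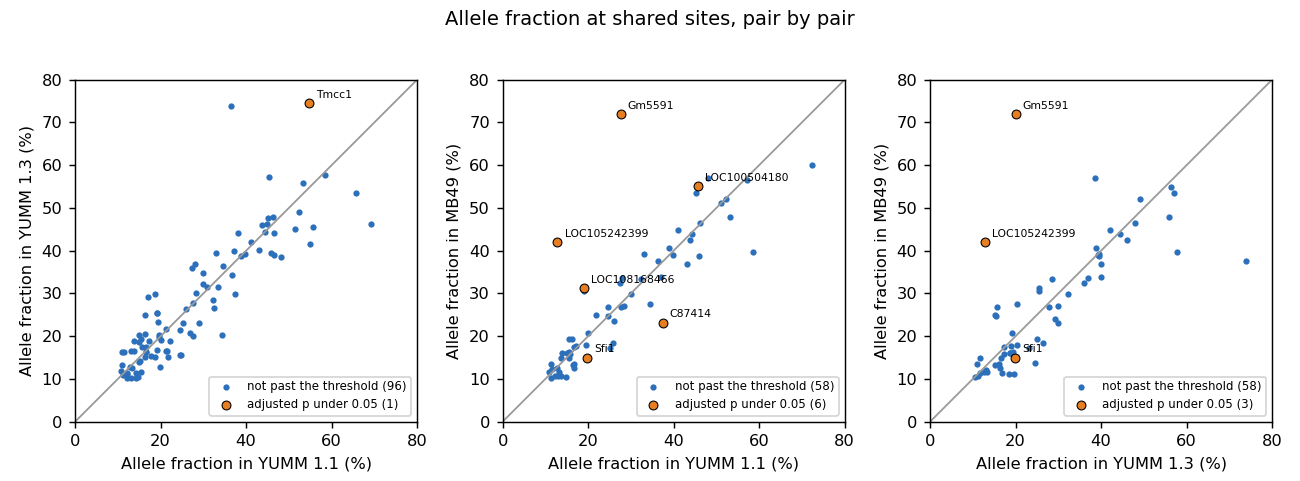
Allele fraction in percent at each shared site in 1 line (x axis) against another (y axis), 1 panel per pair of lines, with the line of equal fractions in grey. Orange points are the 1, 6 and 3 sites whose read counts differed (Fisher's exact test, adjusted p under 0.05), and most of the other points lie along the line. Sites listed in only 1 line of a pair are not shown.

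Within a gene, shared sites could have very different fractions. Of 33 genes with more than 1 shared site, 15 had sites whose mean fractions were over 10 points apart. Gm15433 on chromosome 1 is classed as a pseudogene in RefSeq. It carried V10I with 220 of 431 reads in YUMM 1.1 and 208 of 407 in MB49, close to 51% in both. Its R246Q, 709 bases on, had 55 of 414, 65 of 515 and 55 of 469 reads, and R291W 40 of 291, 62 of 374 and 44 of 297, all under 17% in YUMM 1.1, YUMM 1.3 and MB49. R204Q had 24 of 142 reads in YUMM 1.3 and 14 of 122 in MB49. The gene therefore held 1 site near 51% and 3 sites from 11.5% to 16.9%. V10I was not listed in YUMM 1.3, nor R204Q in YUMM 1.1.

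Gm13212, a predicted gene of chromosome 4, held E161A at 39.8%, 39.2% and 39.1% in YUMM 1.1, YUMM 1.3 and MB49 (72 of 181, 73 of 186 and 34 of 87 reads), and C58R at 16.7%, 16.3% and 12.5%. Gm21190 held, beside P242L at 29.9% to 32.2%, T136N with 98 of 896, 101 of 765 and 82 of 707, from 10.9% to 13.2%. LOC108168466 (Spin2f in RefSeq), on the X chromosome, held K10R at 20%, 19.2% and 20.8% and I33N at 27.6%, 27.8% and 26.8%. LOC100038947 (Sirpb1c in RefSeq), a gene of the signal-regulatory proteins of immune cells, held P125S at 38.2% and 44.2% and T94K at 14.98% and 20.3% in the YUMM lines. Neighbouring shared sites of 1 gene at most 100 bases apart differed by a median of 4.79 points in YUMM 1.1 (17 pairs), 4.21 in YUMM 1.3 (15) and 5.67 in MB49 (8), and those farther apart by 12.9 (20 pairs), 13.5 (20) and 8.01 (15). Sites at most 100 bases apart can lie on the same reads, so they are not separate observations. The largest differences were 46.3, 23.9 and 36.5 points among these close pairs and 37.8, 44.5 and 39.6 among the others, in the same order of lines. In YUMM 1.1 and MB49 the widest close pair was R485S of Tmcc1 and the synonymous change in its codon 466, 57 bases away. The latter had 52 of 199 reads in YUMM 1.1 and 43 of 183 in MB49, or 26.1% and 23.5%.

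**Figure D3:**
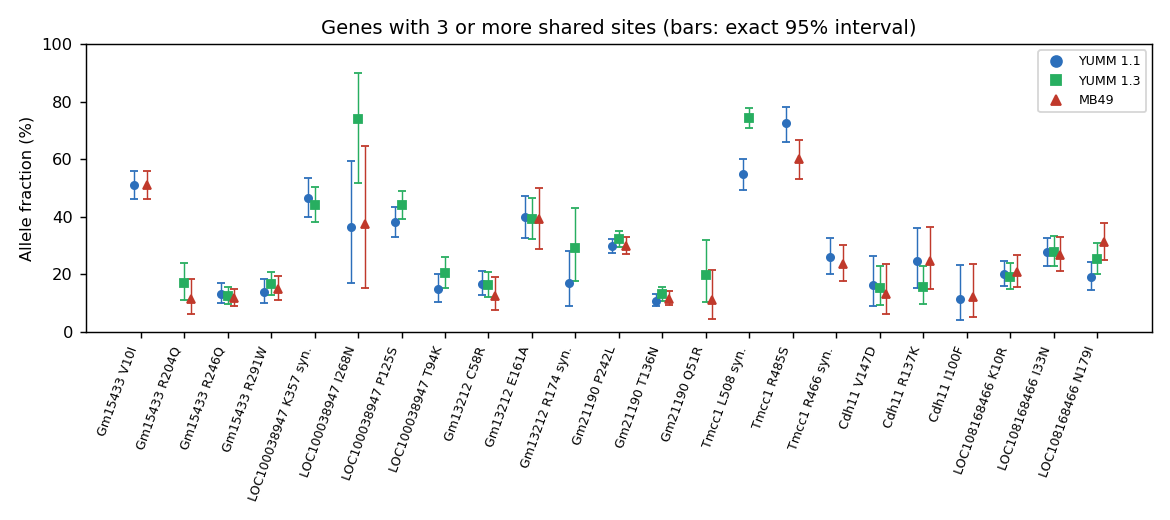
Allele fraction in percent (y axis) of each site in the 7 genes with 3 or more shared sites, in YUMM 1.1 (circles), YUMM 1.3 (squares) and MB49 (triangles), with exact 95% intervals for counting error; syn. marks a synonymous change. Sites of 1 gene lie at different levels, as for V10I of Gm15433 near 51% and its other sites at 11.5% to 16.9%, while the intervals of the lines mostly overlap.

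Of the shared changes 82 were missense, 32 synonymous and 2 stop gains. No difference from private sites was detected in this make-up: missense changes were 70.7% of shared (61.5 to 78.8) and 71.3% of private sites (766 of 1075), a difference of -0.566 percentage points (-9.79 to 7.44, two-sided Fisher's exact test, adjusted p = 1). None of the 3 classes tested passed (0% called by Fisher's exact test, 0 with an unadjusted p under 0.05). Stop gains were 1.72% of shared sites (0.209 to 6.09) and 2.51% of private sites. RefSeq classes Gm15433, Gm15753, Gm21811 and Gm2666 as pseudogenes and Gm7889 as a transcribed pseudogene. Their shared sites are counted here under the consequence given in the lists, and genes with private sites only were not checked for this.

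Missense changes at shared sites were less often classed as damaging. SIFT, which scores a residue change by how conserved the position is, called 13 of 54 deleterious, or 24.1% (13.5 to 37.6), against 374 of 676 private ones, or 55.3% (51.5 to 59.1). The difference was -31.3 points (-41.4 to -17.8, exact test, p = 1.30e-05, 1 test and so 100% called). Within each list it was -24.0 points in YUMM 1.1, -36.2 in YUMM 1.3 and -39.5 in MB49, and each passed (exact test, p = 0.00232, 5.75e-05 and 3.47e-06), although these 3 comparisons share sites. No SIFT class was given for 28 of 82 shared and 90 of 766 private missense changes. Any calls that SIFT marked as low confidence were counted with the others of their class and not looked at apart. Without the symbol groups the shares were 6 of 15 and 292 of 520, and the difference of -16.2 points did not pass (exact test, p = 0.292). The same holds for sites with a depth at or below the 75th percentile of private sites, at -19.1 points on 17 shared changes (exact test, p = 0.142).

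The 13 deleterious changes were V147D and I100F of Cdh11, R485S of Tmcc1, D59H of Pfdn2, L160I of Srgap3, L185V of Ifna12, G95E of Vmn1r2, V815D and T803S of Vmn2r11, T94K of LOC100038947, W41G of Gm21671, L613Q of Gm5591 and F285I of Gm21119. Pfdn2 encodes a prefoldin subunit, a chaperone of actin and tubulin, and D59H had 18 of 97 reads in YUMM 1.3 and 8 of 71 in MB49. Srgap3 encodes a GTPase-activating protein of neurons, and L160I rested on 5 of 35 and 5 of 49 reads in the YUMM lines, the smallest number of alternative reads that the lists hold. Ifna12, an interferon alpha gene, had L185V at 66 of 312 and 71 of 328 reads in the YUMM lines, with a synonymous change 16 bases away at 24.5% and 21.4%.

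Base changes are named by their pyrimidine. C>T led with 41 of 116 shared sites, or 35.3% (26.7 to 44.8), against 27.4% of private sites, higher by 7.90 points (-0.651 to 17.3; adjusted p = 0.246 by Fisher's exact test). T>G made up 7 of 116, or 6.03%, against 14.0%, a difference of -8.01 points (-11.8 to -1.80, exact test, adjusted p = 0.0826). Of the 6 classes, 0 passed (0% called), and T>G alone had an unadjusted p under 0.05 (exact test, p = 0.0138). Transitions, C>T and T>C together, made up 61 of 116, or 52.6%, and 44.2% of private sites (8.40 points, -1.10 to 17.7, exact test, p = 0.0949). The other 4 classes differed by -3.37 to 3.96 points.

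The private sites of the 3 lines have unlike spectra, so each list was also compared within itself. In YUMM 1.1 shared sites held more C>T (34.3% against 17.5%, 16.8 points) and less C>G (11.1% against 26.9%, -15.8 points; Fisher's exact test, adjusted p = 0.00161 for each). In YUMM 1.3 the C>T difference was 7.62 points and in MB49 -2.04 points, neither past the threshold (exact test, adjusted p = 0.736 and 0.859). Whether these differences differ between lines was not tested. With 1 site per gene, C>T was 31 of 74 shared against 255 of 952 private sites, 15.1 points, and passed (exact test, adjusted p = 0.0417). Where the codon shows the base after the changed C, it was a G, the CpG setting in which methylated cytosine is known to mutate, in 11 of 29 shared C>T changes, or 37.9% (20.7 to 57.7), and in 38 of 182 private ones, or 20.9% (15.2 to 27.5).

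**Figure D4:**
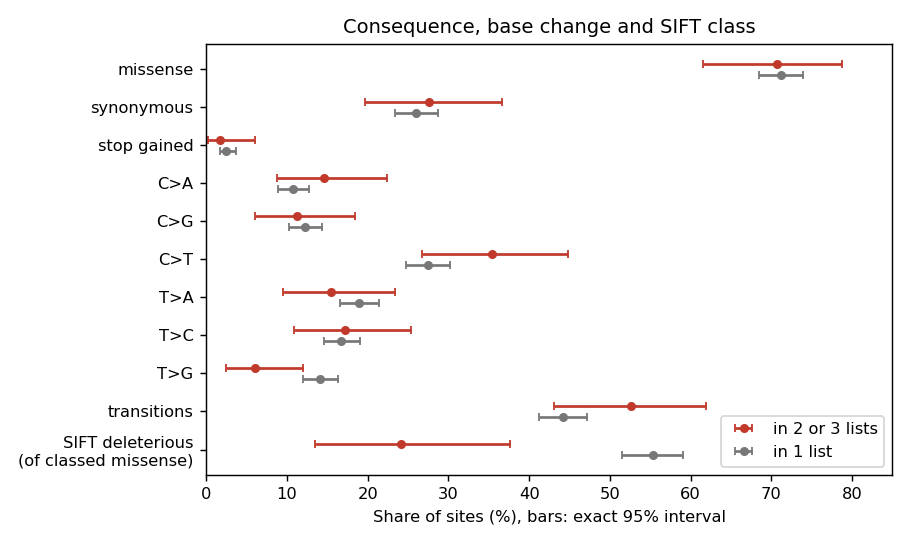
Share of sites in percent (x axis) with each consequence, base change and SIFT class (y axis) for 116 shared (red) and 1075 private (grey) sites, with exact 95% intervals; the SIFT bars are over 54 and 676 classed missense changes. The SIFT share, 24.1% against 55.3%, is the 1 difference shown that passed its test.

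The shared sites were concentrated on a few chromosomes. Sites of 1 gene were not taken as independent, so genes were counted. Of the 74 genes with a shared site, 20 lay on chromosome 5, or 27.03% (17.4 to 38.6). Of the 922 genes with private sites only, 59 did, or 6.40%. The difference was 20.6 points (11.7 to 31.8; adjusted p = 3.96e-06 by Fisher's exact test). The X chromosome held 4 of 74 and 5 of 922 genes (4.86 points, 1.501 to 12.6, adjusted p = 0.0186), and chromosome 2 held 0 of 74 and 91 of 922 (-9.87 points, -12.0 to -4.63, exact test, adjusted p = 0.0121). These 3 of 21 chromosomes passed (14.3% called). The chromosome 5 call held without any 1 of the 3 lists, whereas the X call was lost without the list of YUMM 1.1 or MB49 (6.57 and 4.91 points) and the chromosome 2 call without any 1 list (-9.51, -9.95 and -8.71 points without YUMM 1.1, YUMM 1.3 and MB49). Neighbouring copies of a family are not independent either. The symbol groups are set by name, so leaving them out does not remove every family, and Ifna12 and Pcdhb7, for example, stay. Without the symbol groups chromosome 5 held 2 of 19 and 42 of 712 genes, and 0 chromosomes passed (Fisher's exact test, adjusted p = 0.967 for chromosome 5). The same was found among sites with a depth at or below the 75th percentile of private sites, where chromosome 5 held 4 of 29 and 43 of 728 genes (exact test, adjusted p = 0.812).

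**Figure D5:**
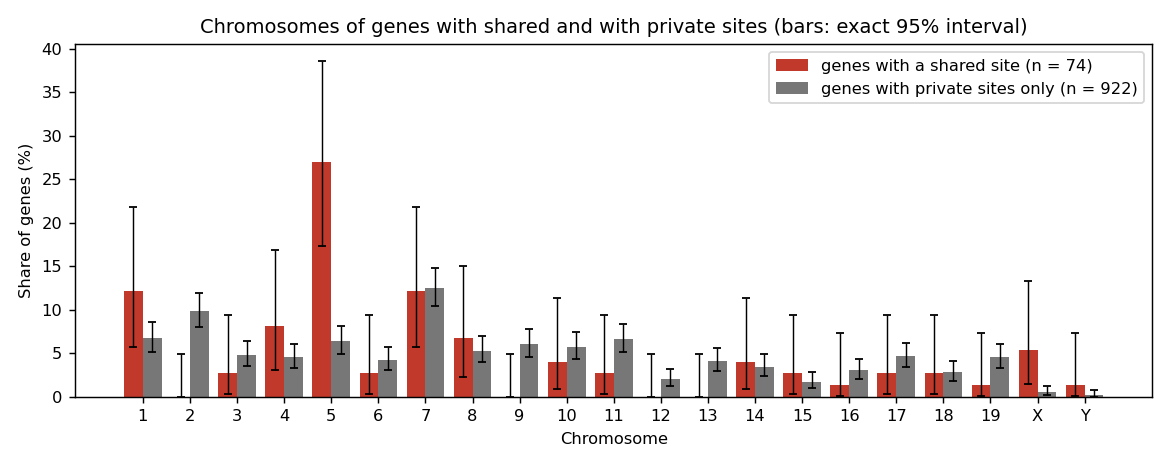
Share of genes in percent (y axis) on each chromosome (x axis) for 74 genes with a shared site (red) and 922 genes with private sites only (grey), with exact 95% intervals. Chromosome 5 stands out at 27.03% against 6.40%, and no gene with a shared site lay on chromosomes 2, 9, 12 or 13.

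Joined wherever the next site was at most 1 Mb away, the 116 shared sites formed 51 regions, and 4 regions with 5 or more sites held 37 of them, or 31.9%. The same 4 regions held 22 private sites, or 2.05%. The regions were drawn around shared sites, and private sites were not joined in this way. The gap between these shares therefore follows from the choice of regions and is no result. The largest, chr5:14935730-15709876, spanned 774 kb with 13 sites in Speer4c, Speer4d, Speer4e, Gm10354, Gm17019, Gm21149, Gm21190 and LOC105242399. A second one on chromosome 5, chr5:25950723-26121222, had 9 sites in Gm10220, Gm1979, Gm21671, Gm21680 and Gm5862. In it Gm1979 G218R had 143 of 309, 122 of 255 and 130 of 279 reads in YUMM 1.1, YUMM 1.3 and MB49, from 46.3% to 47.8%, while C46W of Gm10220 had 33 of 198, 41 of 236 and 36 of 207, from 16.7% to 17.4%. The region chr1:84963696-85550423 had 8 sites in Gm15433, C130026I21Rik, Gm2666 and LOC101055758, beside 14 private ones. The last, chr7:38446907-38865741, had 7 sites in Gm21115, Gm21129, Gm21136 and Gm5591. There Gm21115 V764D had 156 of 352, 148 of 333 and 125 of 285 reads, or 44.3%, 44.4% and 43.9%.

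Shared sites also had close neighbours in their own list more often. In YUMM 1.1, 55 of 108 shared sites, or 50.9% (41.1 to 60.7), had another listed site within 1 kb, against 12.5% (9.08 to 16.6) of private sites. The shares were 43.8% and 16.7% in YUMM 1.3 and 45.8% and 11.7% in MB49. Within 100 kb they were 76.9%, 75.2% and 77.8% of shared and 26.6%, 25.8% and 27.1% of private sites. Neighbours are counted from both ends and are no independent events, so no test is given. Of the 1075 private sites, 50 lay in 30 of the genes that also had a shared site. The UV YUMM 1.1-9 list had 3 sites in such genes, 1 each in Flg, Gbp10 and Gm13212, at positions other than the shared ones.

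The same codon change at the same residue number in another listed gene was found for 4 of 116 shared sites, or 3.45% (0.947 to 8.59), and for 4 of 1075 private sites, or 0.372% (0.101 to 0.9499). Beside codon 250 of Speer4c and LOC105242399, the shared case was codon 125, tcA to tcT, in Gm21608 and Gm21951 (Btbd35f21 in RefSeq), which lie over 1 Mb apart on the X chromosome. Gm21608 had 31 of 96, 33 of 116 and 20 of 60 reads in YUMM 1.1, YUMM 1.3 and MB49, or 32.3%, 28.4% and 33.3%. Gm21951 had 76 of 185, 66 of 157 and 47 of 105, or 41.1%, 42.0% and 44.8%.

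Outside the symbol groups 30 shared sites were left, in 19 genes, and 10 of them were in all 3 lists. Those not yet described are ordered here by role, and those outside the naming rule were singled out with their values known. Among adhesion and barrier genes, Cdh11, a cadherin of mesenchymal cells, held V147D with 13 of 79, 18 of 119 and 9 of 68 reads in YUMM 1.1, YUMM 1.3 and MB49, R137K with 18 of 73, 20 of 129 and 17 of 69, and I100F with 6 of 52 in YUMM 1.1 and 7 of 57 in MB49. Its sites lay 30 and 112 bases apart, at fractions from 11.5% to 24.7%. Eppk1, the epithelial linker epiplakin, held E2533V with 26 of 54, 27 of 70 and 41 of 72 reads, or 48.1%, 38.6% and 56.9%, and E3047V in the YUMM lines only at 21.6% and 16.5%. Flg, the skin barrier protein filaggrin, held G2790V with 32 of 87 and 21 of 61 reads in the YUMM lines. Eppk1 and Flg encode proteins built of internal repeats. Pcdhb7, a clustered protocadherin, held L523P and a synonymous change 7 bases away at 22.2% and 19.9% in YUMM 1.1 and 18.9% and 12.8% in YUMM 1.3.

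Among genes of the chromosome and the spindle, Hjurp, the chaperone that brings CENP-A to centromeres, had synonymous changes in codons 504 and 431, and its neighbour Mroh2a held M820I and R1417Q, all 4 in every list. M820I had 60 of 212, 93 of 310 and 62 of 230 reads, or 28.3%, 30% and 26.96%, and R1417Q 16.7%, 16.2% and 13.5%. Prdm9, the zinc finger protein that places meiotic recombination, held W828R with 11 of 74 and 8 of 57 reads in the YUMM lines.

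Among genes of RNA metabolism, Eri1, an exoribonuclease that trims histone messenger ends, had synonymous changes in codons 225 and 222, 9 bases apart. The first had 59 of 211, 82 of 222 and 67 of 199 reads and the second 60 of 219, 89 of 247 and 69 of 213, so that the fractions were 28.0% and 27.4% in YUMM 1.1, 36.9% and 36.0% in YUMM 1.3 and 33.7% and 32.4% in MB49. Cstf2t, a polyadenylation factor of the testis, held D458E with 21 of 68 and 17 of 54 reads in the YUMM lines. Outside these roles, Cd63, a tetraspanin of late endosomes, held V56I at 21.2% and 16.5% in the YUMM lines. A synonymous change 13 bases away had 19.2% and 16.9%. Gbp10, an interferon-induced GTPase, held P158L with 98 of 328 and 111 of 319 reads in the YUMM lines. Jakmip1 Q711E and Efcab13 R378S were the remaining ones, each with 6 or 7 alternative reads per line.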

How the data were processed

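The deposited tables give, per the file headers, 1 line each with the position, new base, consequence, codons and SIFT class of every change and the read counts of the reference and alternative base, as the authors made them; these counts are whole numbers and not normalized. FastQC, BWA 0.7.5a, GATK, Picard, SAMtools and the build mm10 are named in the submitters' processing notes with no role, and a variant caller with its filters is not given in the sources used here. Summed read counts at listed sites were 63899 in YUMM 1.1, 48577 in YUMM 1.3 and 72270 in MB49.

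A site listed repeatedly in a table entered once, and YUMM 1.1 lost 1 entry in this way. Shares have exact (Clopper-Pearson) intervals and differences Newcombe intervals, all at 95% and for counting error only; reads without molecular identifiers are not independent molecules. Tests were Fisher's exact tests in SciPy 1.17.1, two-sided, with Benjamini-Hochberg adjustment, tested on simulated data. Start windows were compared with BLAST 2.17.0, an analysis added after seeing the data. Genes were matched to RefSeq (GRCm38.p6) by symbol, gene ID or unambiguous synonym, 71 of 74 with a shared site. A planned search for changed peptides in other proteins was not run, since no protein sequences were used here.

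Members, symbol groups, lists and tests were chosen with earlier results of these data known. The naming rule took genes with 3 or more shared sites, stop gains, the 6 deepest sites and the 6 with the highest fraction in every list (1 per gene), protein changes outside the symbol groups in all 3 lists, and sites whose fraction differed between lines.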

Additional observations from a re-analysis of the deposited data

Results flagged for a closer look

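The gap in median allele fraction between shared and private sites ran in opposite directions in 2 lines. In MB49 the median was 23.7% at shared and 46.7% at private sites, or -22.9 percentage points, while in YUMM 1.3 it was 21.6% and 15.97%, or 5.67 points. The value for YUMM 1.1 lay between them, at 23.4% and 25%, or -1.64 points. Each line was 1 library, and the difference between lines was not tested.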

How the results depend on the processing

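The number of shared sites follows from how sharing is defined: it was 53 when all 3 lists had to hold a site, 30 without the symbol groups, 74 with 1 site per gene, 53 at allele fractions of at least 20%, 31 at depths up to the 75th percentile of private sites, 61 without the YUMM 1.1 list and 64 without the YUMM 1.3 list. The lower SIFT share kept its direction in all alternatives (-42.4 to -16.2 points) and missed the threshold without the symbol groups (-16.2 points) and at the lower depths (-19.1). The chromosome 5 difference kept its direction (4.63 to 25.1 points) and missed the threshold in the same settings, at 4.63 and 7.89 points. The number of chromosomes past the threshold was 0 in these settings and 1 without the YUMM 1.1 list, without the MB49 list and within YUMM 1.3. The X chromosome difference turned to -0.562 points without the symbol groups and -0.687 at the lower depths; the chromosome 2 difference kept its direction (-10.5 to -6 points), and its call was lost in most alternatives (adjusted p up to 0.967).

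The missense, C>T, C>G and transition differences, which did not pass, changed sign between settings. The missense difference was 6.10 points for sites in all 3 lists, 8.33 at the lower depths, 4.95 and 9.68 without the YUMM 1.1 and YUMM 1.3 lists, and 2.56 and 7.20 within YUMM 1.1 and MB49. The C>T difference was -2.91 for sites in all 3 lists, -1.85 without the symbol groups, -4.60 and -0.276 without the YUMM 1.1 and YUMM 1.3 lists and -2.04 within MB49. It passed with 1 site per gene (15.1) and within YUMM 1.1 (16.8). Transitions gave -4.56, -4.46, -3.27, -2.996 and -0.938 in the settings in which C>T turned negative, in that order, and passed within YUMM 1.1 (12.2). The C>G difference was 2.35 without the symbol groups, 0.414 at depths of at least 30 reads, 3.42 without the YUMM 1.1 list and 6.23 within MB49, and it passed without the MB49 list (-12.1) and within YUMM 1.1 (-15.8). T>G stayed lower in every alternative (-13.0 to -1.26) and passed in none (adjusted p from 0.0582 to 1). The remaining classes passed in 0 of 60 alternatives and changed sign in 25. Sites whose allele fraction differed between YUMM 1.1 and MB49 numbered 2 without the symbol groups and 2 adjusted over the 3 pairs together, and between YUMM 1.3 and MB49 1 without the symbol groups. The cause was not tested. Leaving out the symbol groups leaves fewer sites, while the adjustment over the 3 pairs together uses the same sites. Depth limits the site-by-site comparison at the shallow shared sites, the lowest of which had 11 reads. No paired analysis was possible because each line has 1 library.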
